A study of Mus musculus with 22 samples.

Results

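The replication-dependent histone genes encode the linker histone H1 and the core histones H2A, H2B, H3 and H4 that package newly made DNA. RefSeq genes of GRCm38 on chromosomes 3, 11 and 13 were chosen by symbol, either the older Hist1h, Hist2h and Hist3h names or the newer H1f, H2ac, H2bc, H3c and H4c names, which gave 70 genes. Of these, 68 were among the 26180 genes with a curated transcription start site (TSS) that were examined, and 2 were pseudogenes with no curated transcript. They comprised 6 H1, 21 H2A, 19 H2B, 12 H3 and 12 H4 genes, 66 of them protein coding and 4 pseudogenes. The Hist1 cluster on chromosome 13 held 56, the Hist2 cluster on chromosome 3 held 10, the Hist3 cluster on chromosome 11 held 3, and the pseudogene H2af-ps2 lay on chromosome 13 outside the cluster. One gene carries the RefSeq symbol H4bc24 although its older symbol, Hist1h2br, places it among the H2B genes, where it was counted.

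These genes are transcribed in S phase, when cells need histones for replicated DNA. Most have no introns, and their mRNAs end in a conserved stem-loop, bound by the stem-loop binding protein SLBP, in place of a poly(A) tail. Their promoters carry TATA and CCAAT boxes and, in H2A and H2B genes, an octamer bound by OCT1, and the clusters are gathered at the histone locus body by NPAT. ATRX is a chromatin remodeller that deposits histone H3.3 with DAXX and is found at telomeres and other G-rich repeats, G-quadruplexes (G4) are DNA structures formed by stacked guanines, and trimethylation of lysine 9 of histone H3 (H3K9me3) marks silent chromatin. TERRA is the RNA transcribed from telomeric repeats.

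The question of the series was how TERRA shapes these chromatin features. Mouse 16.7 ES cells, a female CAST/Ei x 129/Sv/Jae hybrid line grown with feeder cells that were removed beforehand, received LNA gapmer oligonucleotides against TERRA (TERRA KD) or a scramble sequence (scramble KD) for 12 h. ATRX, H3K9me3 and G4 (antibody BG4) were profiled by ChIP-seq and accessible chromatin by ATAC-seq, with 2 replicates per condition and 16 peak lists in all. A histone gene was counted when a peak overlapped the window of 1 kb on either side of its TSS, and the strongest such peak was ranked by its p within its own list, where a percentile of 100 is the top of the list. The windows of 54 genes overlapped that of another histone gene, so the 70 windows formed 39 separate stretches and neighbouring genes often shared a peak.

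Depth was 4104486 to 15506154 tags per library in the ATRX experiment and 5435286 to 13898785 in that of H3K9me3. The G4 libraries held 2961038 to 24588605 tags and the ATAC libraries 5976014 to 7883648. Both G4 lists of a condition were called against an input of the same tag count, 23359214 in scramble KD and 19824848 in TERRA KD. The G4 replicates thus appear to share 1 input, which differs between the conditions. The ATRX list of TERRA KD replicate 1 came from the fewest ATRX tags and held the most ATRX peaks, 41384. The G4 list of TERRA KD replicate 2 stood apart from the other G4 lists, since 2.75% of its 225024 peaks lay within 1 kb of a TSS compared with 4.79% to 7.67% in the other lists. Of 8 ES cell markers, 7 or 8 had an ATAC peak at the TSS in each list, and of 8 fibroblast markers, which would report feeder cells, 5 did in the scramble KD lists and 4 in the TERRA KD lists. Among the fibroblast markers Col1a1, Col1a2, Thy1 and Twist2 had an ATAC peak in all 4 lists and Dcn in both scramble KD lists, whereas Col3a1, Postn and Lum had none in any list. The part of feeder cells in the results was not tested.

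The 3′ stem-loop was searched in each gene. It was found in 65 of 70 genes on the coding strand, usually at the very end of the gene record, and in 8 forms. Forms are shown that separate the histone types, with the paired stem in capitals and the loop of 4 bases in lower case.
H1, H2A, H2B and H3 form: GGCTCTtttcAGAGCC
H1, H2A, H2B and H3 form with another loop: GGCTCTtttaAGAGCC
H4 form: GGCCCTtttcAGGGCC
H4 form of H4c11: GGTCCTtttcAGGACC
The first form was carried by 42 genes, comprising 5 H1, 15 H2A, 14 H2B and 8 H3 genes, and the form ending its loop in A by 9. All 12 H4 genes carried a stem with a different inner base pair, 7 of them in the H4 form shown, and no gene of another type did. The pattern was absent from H2bc21, H2ac22 and the pseudogenes H2ac14, H2ac5-ps and H2af-ps2.

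Promoter sequence also set these genes apart from other genes. In the 250 bases upstream of the TSS, CCAAT stood on either strand in 84.3% of histone genes and 35.4% of all 26180 TSS, TATAAA in 47.1% and 12.1%, and the octamer ATTTGCAT in 24.3% and 1.59%. CCAAT was present in all 21 H2A, all 19 H2B and all 6 H1 genes but in 9 of 12 H3 and 4 of 12 H4 genes. The octamer was found upstream of 9 H2A and 8 H2B genes and of no H1, H3 or H4 gene. H2A and H2B genes stood head to head in 15 divergent pairs whose start sites were 164 to 281 bp apart (median 220 bp), so that a pair shares its promoter. A match between such start sites was often counted for both genes, as was the octamer of H2ac6 and H2bc4. The gene counts above thus exceed the number of separate promoters with a match. The DNA between such start sites is shown for the pair that lost G4 peaks (H2bc7 and H2ac7, chr13:23574208-23574380, plus strand) and for the most accessible pair (H2ac6 and H2bc4, chr13:23683960-23684198, plus strand), with the TATA box, CCAAT and the octamer in capitals on either strand. The 250 bases upstream of H2ac24 (chr13:21833476-21833725, minus strand), which gained ATRX peaks, and of H4c17 (chr13:21811496-21811745, plus strand) are marked in the same way. By its lowest ATAC rank over the lists H4c17 stood highest of the H4 genes, though other H4 genes ranked above it in single lists.
H2bc7 to H2ac7: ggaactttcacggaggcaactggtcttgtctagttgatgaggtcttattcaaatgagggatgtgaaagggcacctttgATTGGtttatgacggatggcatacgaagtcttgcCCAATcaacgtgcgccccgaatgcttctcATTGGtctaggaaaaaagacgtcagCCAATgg
H2ac6 to H2bc4: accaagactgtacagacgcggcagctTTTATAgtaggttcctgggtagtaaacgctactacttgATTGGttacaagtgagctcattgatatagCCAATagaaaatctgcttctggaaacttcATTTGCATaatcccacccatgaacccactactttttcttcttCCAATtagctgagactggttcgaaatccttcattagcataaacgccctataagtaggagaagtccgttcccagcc
H2ac24 upstream: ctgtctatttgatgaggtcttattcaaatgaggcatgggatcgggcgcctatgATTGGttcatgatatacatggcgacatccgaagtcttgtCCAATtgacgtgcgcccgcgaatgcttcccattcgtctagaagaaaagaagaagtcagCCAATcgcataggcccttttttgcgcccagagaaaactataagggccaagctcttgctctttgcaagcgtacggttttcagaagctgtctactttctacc
H4c17 upstream: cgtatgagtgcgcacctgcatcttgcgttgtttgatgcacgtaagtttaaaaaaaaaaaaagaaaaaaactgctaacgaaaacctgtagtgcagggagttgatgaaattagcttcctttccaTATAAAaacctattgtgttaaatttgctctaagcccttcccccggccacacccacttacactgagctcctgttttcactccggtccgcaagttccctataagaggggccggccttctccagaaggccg
The H2bc7 and H2ac7 promoter held 4 CCAAT boxes, that of H2ac6 and H2bc4 held 3 with 1 TATA box and 1 octamer, and that of H2ac24 held 3 CCAAT boxes. The H4c17 stretch held 1 TATAAA and no CCAAT. That TATAAA lay near the middle of the stretch, and whether it acts as a TATA box was not tested. Only the exact word TATAAA was searched, so variants of it were left unmarked. These sequences are from GRCm38.p6, the build of the peak lists.

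Few histone genes carried a predicted G4 motif, defined as 4 runs of at least 3 G with loops of 1 to 7 bases on either strand. It was present in the windows of 13 of 70 histone genes (18.6%), compared with 54.9% of all TSS and 68.5% of TSS with an ATAC peak in all 4 lists. The windows nevertheless were not poor in CpG. Their median ratio of observed to expected CpG was 0.76 against 0.44 for all TSS, and their median GC content was 49.5% against 50.9%. For TSS with an ATAC peak in all 4 lists these medians were 0.61 and 54.1%. The motif was found in 5 H4, 3 H2A, 2 H1, 2 H3 and 1 H2B genes. H3c15 and H3c14 of the Hist2 cluster, which encode H3 and lie in an inverted duplication, and the linker histone gene H1f6 are shown with the motif in capitals (H3c15, chr3:96239128-96239377, minus strand, and H1f6, chr13:23695561-23695810, plus strand).
H3c15 upstream: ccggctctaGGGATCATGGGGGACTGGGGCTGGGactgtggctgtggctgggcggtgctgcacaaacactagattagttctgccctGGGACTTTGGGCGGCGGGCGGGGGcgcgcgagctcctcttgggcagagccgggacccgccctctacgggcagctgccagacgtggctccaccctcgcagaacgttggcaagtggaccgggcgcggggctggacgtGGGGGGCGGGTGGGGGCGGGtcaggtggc
H1f6 upstream: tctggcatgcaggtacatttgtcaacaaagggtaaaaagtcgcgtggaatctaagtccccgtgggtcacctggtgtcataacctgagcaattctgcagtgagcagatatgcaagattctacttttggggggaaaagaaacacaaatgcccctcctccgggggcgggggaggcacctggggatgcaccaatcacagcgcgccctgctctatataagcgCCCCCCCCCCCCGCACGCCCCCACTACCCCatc
The H3c15 stretch held 3 motifs on its coding strand, and 231 consecutive bases of it were identical in the 250 bases upstream of H3c14. The H1f6 stretch held 1 motif, on the opposite strand.

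Chromatin at the histone genes was open in every ATAC list. A peak was present at 69 of 70 genes (98.6%) in scramble KD replicates 1 and 2 and in TERRA KD replicates 1 and 2, while it was present at 59.4%, 63.5%, 62.3% and 64.2% of all TSS in the same lists. Counted by overlap, the share therefore did not differ between the conditions. The 1 exception in all 4 lists was H1f6, which encodes the testis-specific linker histone H1t. Every H2A, H2B, H3 and H4 gene, pseudogenes included, had a peak overlapping its window in each list. Some of these peaks had their summit outside the window. With the summit required in the window, 59 genes had a peak in all 4 lists. The mean share was then 90% in scramble KD and 92.9% in TERRA KD.

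**Figure D1:**
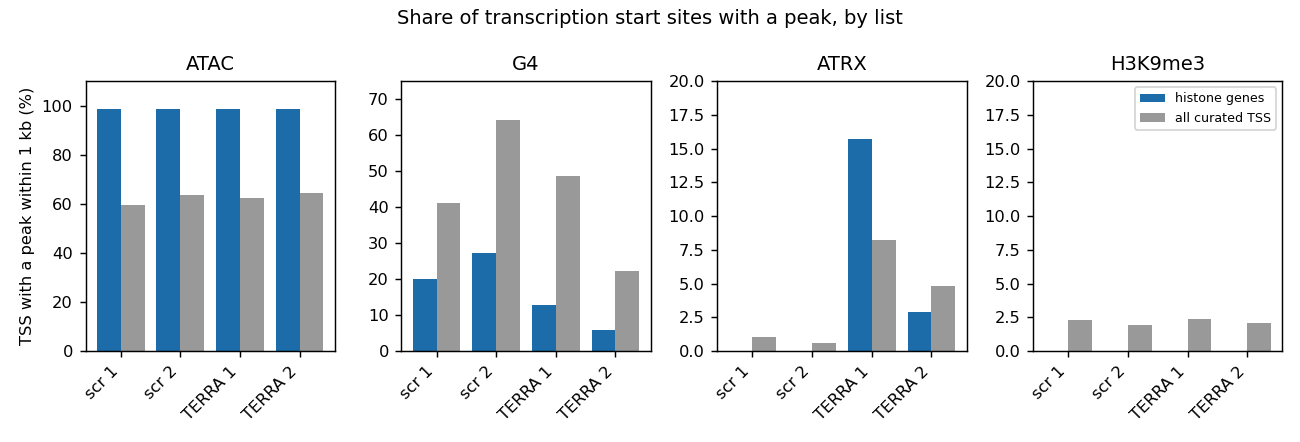
Bars give the percentage of the 70 histone genes (blue) and of all 26180 curated TSS (grey) with a peak within 1 kb, in each of the 4 lists of ATAC, G4, ATRX and H3K9me3 (scr, scramble KD, and TERRA, TERRA KD, with the replicate number, and separate vertical scales). Histone genes stood at 98.6% in all ATAC lists, below the grey bar in all 4 G4 lists and at 0 in all 4 H3K9me3 lists.

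The ATAC peaks at histone genes ranked high. Their median percentile over the 70 genes was 91.8 and 90.6 in the scramble KD lists and 92.1 and 92.7 in those of TERRA KD replicates 1 and 2. Over the 14950 TSS with a peak in all 4 lists the medians were 79.1, 84.8, 83.4 and 86.2, and 60 to 67 of the 69 open histone genes lay above them. Taking the lowest rank of each gene over the 4 lists, the H2A and H2B pair H2ac6 and H2bc4 ranked highest of its types, at percentiles of 98.1 and 99.0 in the scramble KD lists and 99.2 and 98.8 in those of TERRA KD. H3c6, an H3 gene, stood at 97.4 and 96.5 in the scramble KD lists and 98.5 and 97.9 in those of TERRA KD. H4c17 stood at 97.8 and 98.6 in the scramble KD lists and 96.2 and 98.0 in those of TERRA KD, and H1f2, which encodes H1.2, at 95.7 and 94.4 in the scramble KD lists and 96.2 and 96.8 in those of TERRA KD. The TERRA KD values were above the scramble KD values for H3c6 and H1f2 and overlapped them for H2ac6, H2bc4 and H4c17. In the H4c17 window 93.0% of words of 50 bases occurred elsewhere in the genome, so its reads could be placed at more than 1 copy. In the 4 lists 8 to 13 of the 69 open histone genes were ranked by a peak whose summit lay outside the window.

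By type, H4 genes had the highest median in each list, at 93.0 and 93.6 in the scramble KD lists and 94.0 and 95.1 in those of TERRA KD. The medians of H2A (91.0, 90.2, 91.7 and 92.7), H2B (91.9, 90.1, 91.9 and 92.7) and H3 genes (91.8, 89.3, 92.0 and 90.5) lay below it in each list, and those of the 6 H1 genes were 91.8, 88.8, 88.2 and 90.5. These medians include genes ranked by a peak with its summit outside the window, such as H4c18 in each list, and count H1f6 as 0. Differences between types were not tested. By cluster, Hist2 medians were 93.3, 91.3, 92.9 and 94.7 and Hist1 medians 91.9, 90.5, 92.4 and 91.7. The lowest ranks of any pair belonged to H2bc1 and H2ac1, which encode the testis-specific H2B and H2A variants, at 63.97 and 69.7 in the scramble KD lists and 73.6 and 79.6 in those of TERRA KD.

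**Figure D2:**
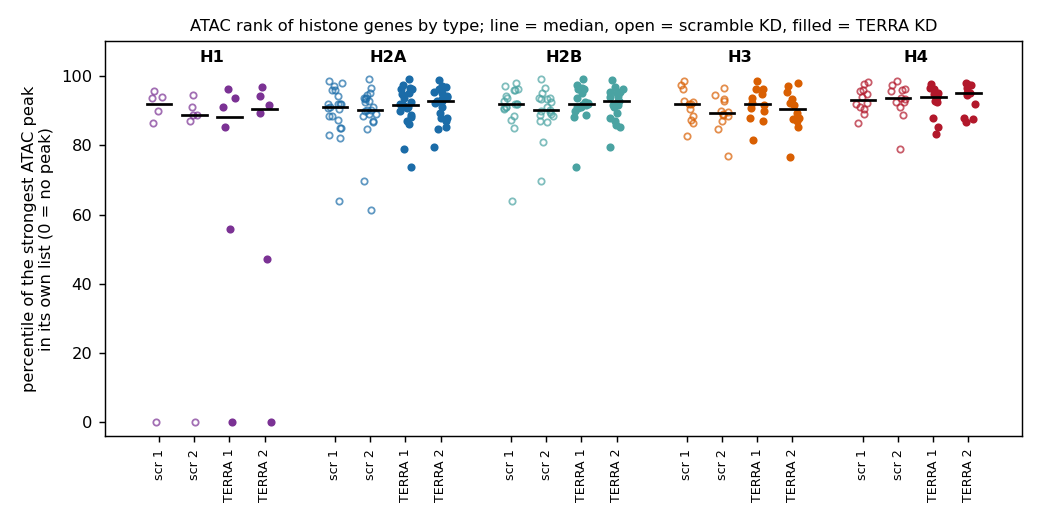
Each point is 1 histone gene, plotted at the percentile of its strongest ATAC peak within 1 kb of the TSS in its own list (0 where there is no peak), grouped by histone type and list, with open points for scramble KD, filled points for TERRA KD and a line at the median. The H1 points at 0 are H1f6, and the medians of the other types lie between 89.3 and 95.1.

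The median percentile of the histone genes was 91.2 ± 0.90 (SD, n = 2) in scramble KD and 92.4 ± 0.39 (SD, n = 2) in TERRA KD, a difference of 1.19 percentile points (two-sided exact permutation test, p = 0.333, the smallest p that 2 against 2 samples allow). The difference was 0.53 points with equal numbers of top-ranked peaks, 0.55 without scramble KD replicate 2, 1.83 without scramble KD replicate 1 and 0.019 among the 17 genes with at most 10% of 50-base words repeated elsewhere in the genome. Of the 69 open histone genes, 16 ranked higher in both TERRA KD lists than in both scramble KD lists (23.2%, against 25.3% of the 14950 open TSS), and 2 ranked lower in both (2.90%, against 8.19%). Among the 16 were H2bc1 and H2ac1, the H2ac21, H2ac20 and H2bc21 group of Hist2, and H4c6. H4c9 was also among them, but in scramble KD replicate 2 and TERRA KD replicate 1 it was ranked by a neighbouring peak, and its own peak stood at 89.1 and 91.5 in the scramble KD lists and 91.0 and 95.2 in those of TERRA KD, which overlap. With the summit required in the window, 15 of 59 histone genes ranked higher in both TERRA KD lists (25.4%, against 25.2% of TSS) and 1, H4c4, ranked lower (1.69%, against 8.25%). The lower 2, named after their values were seen, were H4c4, at 91.2 and 92.4 in the scramble KD lists and 85.1 and 88.0 in those of TERRA KD, and H1f1, at 86.6 and 88.9 and then 55.7 and 47.2. The H1f1 drop did not concern a peak of its own. In scramble KD the peak of the neighbouring H3c1 reached 22 and 52 bp into the H1f1 window and was counted there, and the peak with its summit inside the H1f1 window stood at 58.5 and 32.7 in the scramble KD lists and at 55.7 and 47.2 in those of TERRA KD.

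The strongest ATAC peaks over histone genes were longer than the median peak of their lists. Their median length was 1312 and 1394 bp in the scramble KD lists and 1426 and 1429 bp in those of TERRA KD. The medians of the whole lists were 518 to 545 bp. Only 16.63% to 20.02% of the peaks in those lists lay within 1 kb of a TSS. Peak length at other open TSS was not compared, and a peak shared by neighbouring histone genes was counted for each. The median fold enrichment was 5.38 and 5.54 in the scramble KD lists and 5.37 and 5.27 in those of TERRA KD. The whole gene record lay inside a peak for 38 and 39 of 70 genes in the scramble KD lists and 43 and 47 in TERRA KD. Summits had medians of 58 and 41 bp upstream in the scramble KD lists and 44 and 47 bp in those of TERRA KD, and 63.8% to 69.6% of them lay within 300 bp of the TSS. Over all TSS with an ATAC peak the medians were 10 to 23 bp downstream and 68.8% to 70.2% lay within 300 bp.

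**Figure D3:**
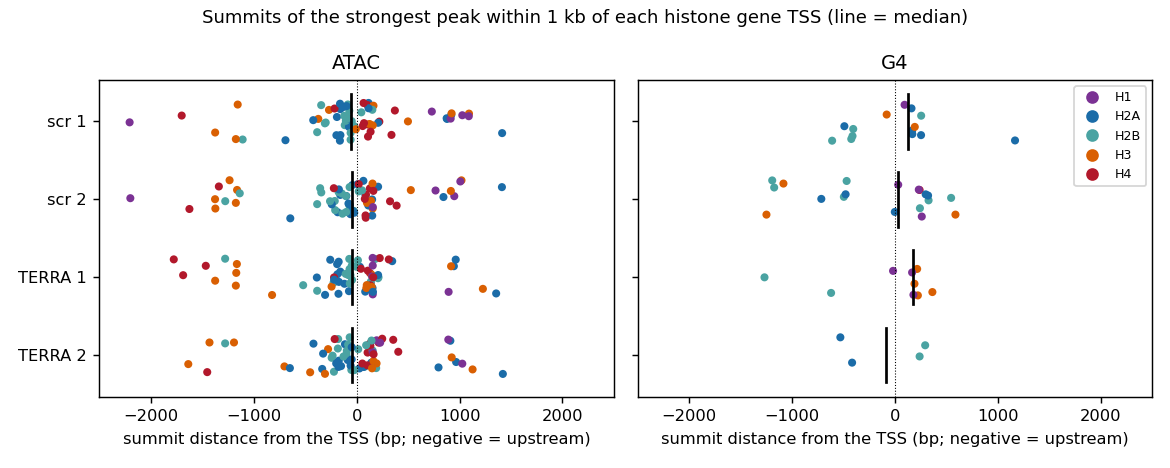
Distance in bp from the TSS to the summit of the strongest ATAC peak (left) and G4 peak (right) at each histone gene with a peak, by list, coloured by histone type, with a line at the median and negative values upstream. ATAC medians lay 41 to 58 bp upstream, and G4 points were few, 14 and 19 in the scramble KD lists and 9 and 4 in those of TERRA KD.

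G4 peaks were scarce at histone genes. They were present at 14 genes (20%) in scramble KD replicate 1, 19 (27.1%) in replicate 2, 9 (12.9%) in TERRA KD replicate 1 and 4 (5.71%) in replicate 2, against 41.2%, 64.1%, 48.5% and 22.1% of all TSS. The histone genes were thus below the share of all TSS in each of the 4 lists. The order was the same among TSS with an ATAC peak in all 4 lists, where 20.3%, 26.1%, 11.6% and 5.80% of histone genes and 55.5%, 70.3%, 60.9% and 13.5% of TSS had a G4 peak. It was also the same among open TSS without a predicted G4 motif, with 21.1%, 28.1%, 10.5% and 7.02% of 57 histone genes and 37.1%, 60.5%, 44.9% and 11.8% of 4711 TSS. Of the 12 open histone genes with a motif, 2, 2, 2 and 0 had a G4 peak, where 63.9%, 74.8%, 68.3% and 14.3% of 10239 TSS did. Of the 29 histone genes with a G4 peak in any list, 25 had no predicted motif in the window.

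**Figure D4:**
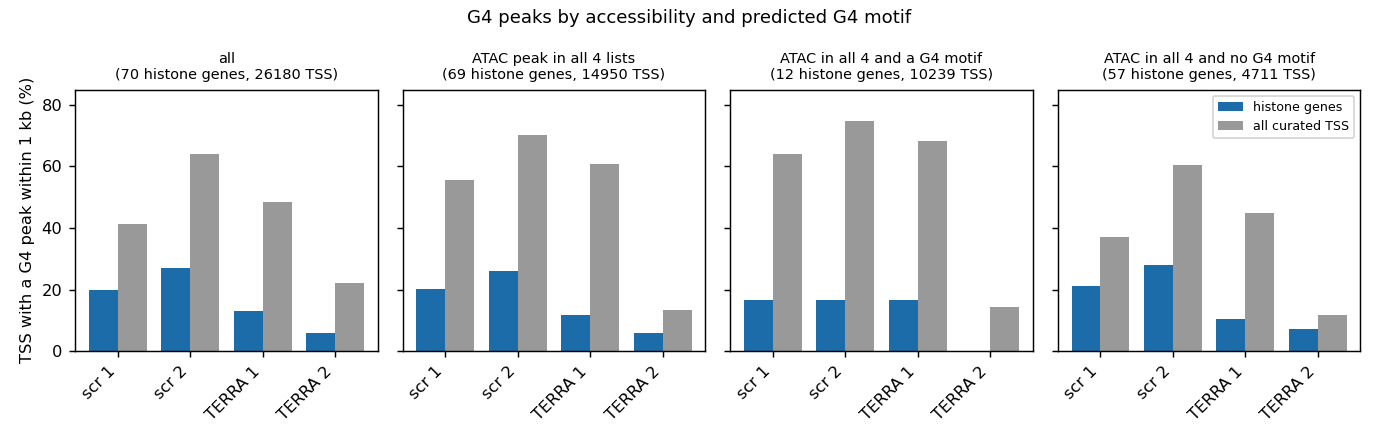
Bars give the percentage of histone genes (blue) and of all curated TSS (grey) with a G4 peak within 1 kb in each list, for all TSS, for those with an ATAC peak in all 4 lists, and for the latter with and without a predicted G4 motif. The blue bar is below the grey bar in every list of every panel, with 12 histone genes in the panel with a motif and 57 in the panel without.

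Fewer histone genes had a G4 peak in TERRA KD, 9.29% ± 5.05 (SD, n = 2), than in scramble KD, 23.6% ± 5.05 (SD, n = 2). The groups did not overlap, and the difference of −14.3 percentage points gave p = 0.333 in the two-sided exact permutation test, again the smallest p possible. With peaks of −log10 p of at least 5 the difference was −1.43 points and the groups overlapped (exact permutation p = 0.667), and with equal numbers of top-ranked peaks it was −9.29 points. Over all TSS the share in TERRA KD replicate 1 lay between those of the scramble KD lists, and the mean difference was −17.3 points. Without TERRA KD replicate 2, which stood apart, the histone genes differed by −10.7 points. Over all TSS the remaining TERRA KD list then stood at 48.5%, beside a scramble KD mean of 52.6%. Since the median histone gene had no G4 peak in any list, the median percentile was 0 throughout.

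No histone gene had a G4 peak in all 4 lists, while 9.16% of all TSS did. In 41 genes no list held one, 17 genes had one in 1 list, 7 in 2 lists and 5 in 3 lists, where 25.1%, 18.4%, 21.1% and 26.2% of all TSS had a G4 peak in 0, 1, 2 and 3 lists. By type, G4 peaks were found at 1, 3, 3 and 0 of 6 H1 genes, at 6, 5, 0 and 2 of 21 H2A genes, at 5, 7, 2 and 2 of 19 H2B genes and at 2, 3, 4 and 0 of 12 H3 genes in scramble KD replicates 1 and 2 and TERRA KD replicates 1 and 2. Among the 12 H4 genes the only G4 peak in these lists was that of H4c12 in scramble KD replicate 2. The Hist2 genes had 2, 2, 1 and 0 peaks among 10 genes and the Hist3 genes 1, 3, 1 and 0 among 3.

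The 5 genes with a G4 peak in 3 lists were H1f4, H3c4, H2bu2, H2ac6 and H2bc4. H1f4, which encodes H1.4, had peaks with 4 tags in scramble KD replicate 1, 31 in replicate 2 and 12 in TERRA KD replicate 1, and the peak in scramble KD replicate 1 overlapped that in TERRA KD replicate 1 by 406 bp. The most upstream start of H2bc6, 1434 bp from that of H1f4, was counted with the same peaks in 2 lists. H2ac6 and H2bc4, the pair with the highest ATAC rank, shared peaks of 4 tags in scramble KD replicate 1, 25 in replicate 2 and 16 in TERRA KD replicate 2, and the first lay wholly within both others (overlap of 381 bp). H1f6, without an ATAC peak, had G4 peaks in scramble KD replicate 2 (20 tags, summit 30 bp downstream of the TSS) and TERRA KD replicate 1 (8 tags, 20 bp upstream), in the stretch where its G4 motif lies. H2bu2 of Hist3 was the one gene with both a motif and peaks in 3 lists, but its peak in scramble KD replicate 2 did not overlap those of scramble KD replicate 1 and TERRA KD replicate 1. At H3c4 the peak in scramble KD replicate 2 was that of H2bc7 and H2ac7, with its summit outside the H3c4 window, so neither gene had 1 site in 3 lists.

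A G4 peak in both scramble KD lists and neither TERRA KD list was seen at 4 genes, H3c15, H2ac19, H2bc7 and H2ac7, which is 5.71% of the members where 4.74% of all TSS met the same rule. The opposite pattern was seen at none, and at 0.248% of all TSS. Since the G4 lists of a condition appear to share 1 input, agreement between them is not fully independent. H3c15 and H2ac19, an H3 and an H2A gene 1247 bp apart, shared a peak of 9 tags at percentile 60.8 in scramble KD replicate 1 and of 77 tags at percentile 87.1 in replicate 2, the smaller lying inside the larger. The summit lay outside the H2ac19 window in replicate 1 and outside the H3c15 window in replicate 2. With the summit required in the window neither of these genes met the rule. H2bc7 and H2ac7, the divergent pair shown above, shared a peak of 4 tags at percentile 18.4 and of 29 tags at percentile 24.8, which overlapped by 409 bp. The 4 genes thus stand for 2 regions. H3c14, whose promoter repeats that of H3c15, showed instead a G4 peak in TERRA KD replicate 1, with 9 tags at percentile 3.04. In the H3c15 window 77.6% of words of 50 bases occurred elsewhere in the genome, as did 52.2% for H2ac19, so reads could be placed at more than 1 copy. Without TERRA KD replicate 2 the rule was met by 6 genes, without scramble KD replicate 1 by 11, without scramble KD replicate 2 by 9 and without TERRA KD replicate 1 by 7.

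Within 1 kb of the TSS, ATRX peaks appeared at histone genes only in the TERRA KD lists. None of the 70 genes had one in either scramble KD list, where 1.07% and 0.588% of all TSS did. In TERRA KD, 11 genes (15.7%) had one in replicate 1 and 2 genes (2.86%) in replicate 2, against 8.22% and 4.83% of all TSS. Among TSS with an ATAC peak in all 4 lists, 15.9% and 2.90% of 69 histone genes had one in these replicates. Of the 14950 TSS in that set 11.04% and 6.09% did, so the gap in replicate 1 was smaller there. In both comparisons the histone genes were above the share of TSS in replicate 1 and below it in replicate 2. The TERRA KD mean over the 70 genes was 9.29% ± 9.09 (SD, n = 2). The difference from scramble KD was 9.29 percentage points (two-sided exact permutation test, p = 0.333), compared with 5.70 points over all TSS. The lists differed in length, and with equal numbers of top-ranked peaks the difference was 1.43 points (exact permutation p = 1). Without TERRA KD replicate 1 the difference was 2.86 points, and without replicate 2 it was 15.7 points.

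The 11 genes of TERRA KD replicate 1 shared 6 peaks. They were H3c15 and H2bc18 of the Hist2 cluster and H2ac22, H2bc22, H4c18, H2ac24, H4bc24, H2bc7, H2ac7, H2ac6 and H2bc4 of Hist1. No H1 gene and no gene of Hist3 had an ATRX peak in any list. The peaks rested on 4 to 7 tags, with fold enrichments of 9.02 to 15.83 and a −log10 p of 2.035 to 2.687, close to the threshold of 2 used for calling. The median peak of that list held 5 tags.

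A gain of ATRX in both TERRA KD lists was seen at H2ac24 and H4bc24, a divergent H2A and H2B pair with start sites 268 bp apart, which is 2.86% of members where 0.71% of all TSS met the rule. A loss in both was seen at none, and at 0.00764% of all TSS. The replicate 1 peak at this pair held 7 tags, at a fold enrichment of 15.83 and percentile 67.6, and the replicate 2 peak held 12 tags, at 4.26 and percentile 54.2. These peaks did not overlap. They lay 272 bp apart, the former over H2ac24 and the latter starting 25 bp downstream of the start of H4bc24. All words of 50 bases in both windows occurred elsewhere in the genome, the pair being duplicated as H2ac23 and H2bc23, which had no ATRX peak. Among the 17 histone genes with at most 10% of repeated words, none had an ATRX peak in any list.

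Of the 11 genes with an ATRX peak, 3 (H3c15, H2bc7 and H2ac7) were among the 4 that lost G4 peaks, and these 3 share 2 ATRX peaks. Over all TSS, ATRX peaks of TERRA KD replicate 1 were counted at 135 of the 1240 that met the same G4 rule (10.9%, against 8.22% of all TSS). At H3c15 the ATRX peak lay 113 bp from the G4 peak of scramble KD replicate 1 and overlapped that of replicate 2 by 154 bp. At H2bc7 and H2ac7 it lay 170 bp from the former and wholly within the latter (556 bp). At H2ac6 and H2bc4 the ATRX peak overlapped the G4 peaks of scramble KD replicate 1 by 299 bp and of TERRA KD replicate 2 by 358 bp. ATRX and G4 were measured in separate libraries, and most of these peaks rested on few tags.

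**Figure D5:**
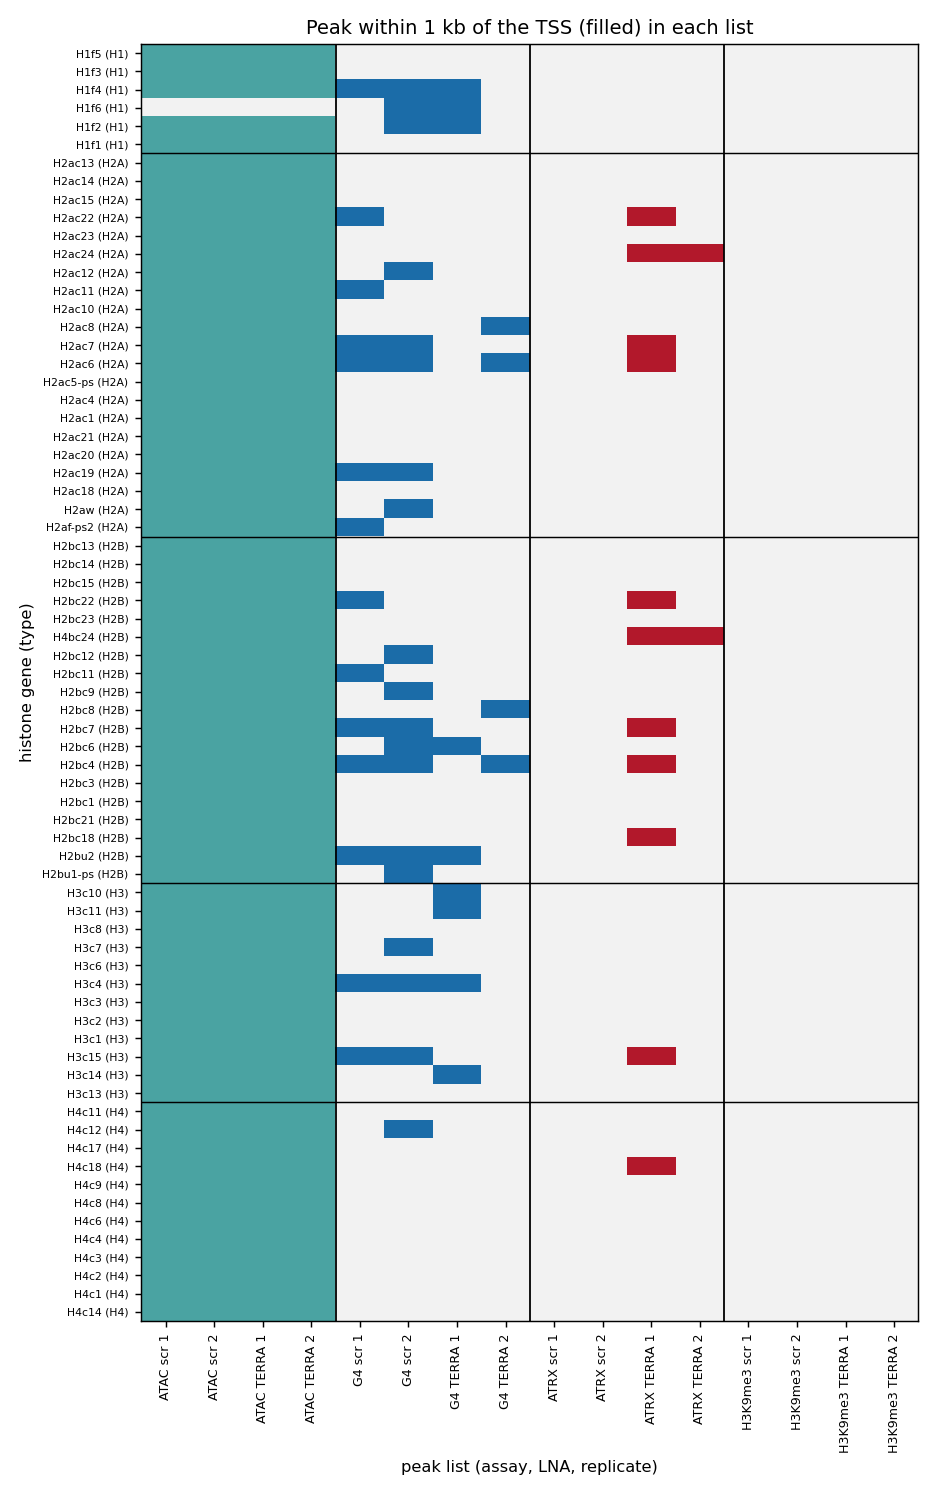
Each row is 1 of the 70 histone genes, sorted by type, and each column 1 of the 16 peak lists, and a filled cell marks a peak within 1 kb of the TSS. The ATAC columns are filled except at H1f6, the G4 and ATRX cells are scattered and often shared by neighbouring genes, and the H3K9me3 columns are empty.

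No H3K9me3 peak lay within 1 kb of any histone gene in any of the 4 lists, where 2.28% and 1.96% of all TSS in the scramble KD lists and 2.35% and 2.07% in those of TERRA KD had one. The nearest peak to any TSS was 2580 bp from H4c17 and 6193 bp from H4c11 in scramble KD, and 2338 bp from H2bc14 and 2499 bp from H1f6 in TERRA KD. The median distance from a histone gene to an H3K9me3 peak was 40158 and 44439 bp in the scramble KD lists and 59169 and 37885 bp in those of TERRA KD, against 50623, 31075, 56226 and 30955 bp over all TSS. The histone genes were thus nearer to H3K9me3 than TSS in general in scramble KD replicate 1 and farther from it in the other lists. Coverage of the clusters had no single direction. In the part of Hist1 with 30 genes (chr13:23531044-23764412), H3K9me3 peaks covered 5.25% and 1.65% of the sequence in the scramble KD lists and 6.14% and 2.71% in those of TERRA KD. In the part with 19 genes (chr13:21715711-21837530) they covered 5.44% and 0.80% in the scramble KD lists and 3.39% and 1.80% in those of TERRA KD. The other stretches with histone genes held no H3K9me3 peak.

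Genes that act on histone mRNAs and new histones were also open. All 24 listed factors, among them Npat, the S phase coactivator of histone genes, and Slbp, had an ATAC peak in every list. Of all TSS 59.4% to 64.2% did per list. A G4 peak was present at 18 and 15 of them in the scramble KD lists and 15 and 2 in those of TERRA KD. These counts are 75%, 62.5%, 62.5% and 8.33% of the list, beside the 41.2%, 64.1%, 48.5% and 22.1% of all TSS. Among TSS with an ATAC peak in all 4 lists, as these 24 genes had, the shares were 55.5%, 70.3%, 60.9% and 13.5%. A G4 peak was lost in both replicates at 4 of the 24 and gained at none, where 4.74% and 0.248% of all TSS met these rules. The 4 were Hinfp, a transcription factor of H4 genes, Gon4l, Asf1b, a chaperone of H3 and H4, and Chaf1a, a subunit of the chromatin assembly factor CAF-1. An ATRX peak was found only at Hinfp, in TERRA KD replicate 1, where 8.22% of all TSS had one.

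Of 13 genes for histone variants and for histones outside the clusters, 11 and 13 had an ATAC peak in the scramble KD lists and 11 and 12 in those of TERRA KD. These are 84.6%, 100%, 84.6% and 92.3%, beside 59.4%, 63.5%, 62.3% and 64.2% of all TSS. H1f8, the oocyte linker histone, had one in scramble KD replicate 2 alone, and H1f0, the linker histone of resting cells, in the replicate 2 lists of both conditions. G4 peaks were present at 9 and 10 genes in the scramble KD lists and 8 and 2 in those of TERRA KD. These are 69.2%, 76.9%, 61.5% and 15.4%, beside 41.2%, 64.1%, 48.5% and 22.1% of all TSS. They were lost in both replicates at H2ax and H3f3a, which encode H2A.X and H3.3, where 4.74% of all TSS met this rule. ATRX peaks were present at 1, 0, 3 and 1 genes, with H4f16, the H4 gene outside the clusters, in scramble KD replicate 1 and TERRA KD replicate 2. These are 7.69%, 0%, 23.1% and 7.69%, beside 1.07%, 0.588%, 8.22% and 4.83% of all TSS. No gene of either list had an H3K9me3 peak, which 1.96% to 2.35% of all TSS had.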

How the data were processed

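ATRX, H3K9me3 and G4 ChIP-seq and ATAC-seq of 16.7 ES cells were analysed from 16 peak lists, 1 per library. The authors trimmed reads with Trim Galore 0.5.0, aligned them with Bowtie2 2.3.4.1 to GRCm38, so that a read matching several copies is placed at 1 of them, removed duplicates with SAMtools 1.9 and called peaks per library at p = 0.01, with MACS 1.4.3 (ATRX, H3K9me3) or 1.4.2 (G4) against input and MACS 2.2.7.1 without input (ATAC). The deposited ChIP lists give a tag count, a score, which is a multiple of the negative log10 p, and a fold enrichment. The deposited ATAC lists give a pileup signal, a −log10 p and a fold enrichment. None is scaled between libraries, so heights were not compared between lists. The score was converted to −log10 p, and each peak was ranked by it within its list.

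The most upstream curated RefSeq TSS was used, with the record start for 2 pseudogenes. Of the members, 5 were matched through older symbols. A peak counted with at least 1 bp of overlap. Named members had a gain or loss in both replicates, an ATRX peak in at least 2 lists, the highest worst ATAC or G4 percentile of their type, or no ATAC peak. No G4 percentile could be ranked this way, since no member had a G4 peak in all lists. Others were named after their values were seen. Conditions were compared by two-sided exact permutation over samples (n = 2 each, smallest p 0.333). The study calls the replicates of ATRX and G4 ChIP-seq biological. For H3K9me3 and ATAC-seq this is not given in the sources used here, and there the spread may be technical. Functions were tested on simulated data. Python 3.11.15, numpy 2.4.6 and pandas 2.3.3 were used. Members and gene lists were chosen with earlier results of these data known. Alternatives covered the p cutoff, window, summit, list size, merging of windows, repeated sequence, each library, the replicate block, the TSS and pseudogenes.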

Additional observations from a re-analysis of the deposited data

How the results depend on the processing

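The difference in the share of histone genes with a G4 peak kept its sign in all 15 alternatives, as did the ATAC percentile in all 15, but their size did not hold. The G4 difference ranged down to −1.43 points (peaks of −log10 p of at least 5, exact permutation p = 0.667) and the ATAC difference to 0.53 with equal numbers of top-ranked peaks (p = 0.667) and 0.019 with at most 10% repeated words (p = 1). Leaving out 1 library at a time gave −17.9 to −10.7 for G4, 0.55 to 1.83 for ATAC and 2.86 to 15.7 for ATRX. The ATRX difference was 1.43 points with equal numbers of top-ranked peaks and 5.83 with at most 50% repeated words (exact permutation p = 1 for both). The H3K9me3 share and the median G4 percentile stayed at 0 in all 15. Other results rested on weak or repeated peaks. With peaks of −log10 p of at least 5, or with the 17 genes of at most 10% repeated 50-base words, the ATRX difference was 0 percentage points, the ATRX gains were 0 and the G4 losses 0. With summits required in the window the ATAC share differed by 2.86 percentage points and G4 losses fell to 2, those of H2bc7 and H2ac7. G4 losses were also 2 with a window of 2 kb, with equal numbers of top-ranked peaks and, chosen after seeing the data, with genes of at most 50% repeated words, and ATRX gains were 0 in the last 2. Merged windows gave 1 ATRX gain and 1 G4 loss. Leaving out 1 library at a time gave 2 to 11 ATRX gains and 6 to 11 G4 losses. By construction fewer lists must then agree.

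The replicate numbers were not stated to mark a shared batch. The correlation of same-numbered deviations over all TSS was 0.02 in the ATRX lists and 0.37, 0.26 and 0.14 in the H3K9me3, G4 and ATAC lists. With the replicate block the differences were 9.29 points for ATRX, −14.3 for G4 and 1.19 for the ATAC percentile, with an exact sign-flip p = 0.5 for each, the smallest that 2 pairs allow, and 2 ATRX gains and 4 G4 losses. No call changed. Depth differed between the G4 libraries from 2961038 to 24588605 tags, so the absence of a G4 peak means only that none was called at that depth.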

Other observations

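The Hist1 cluster spans 2219203 bp and holds 55 other genes with a curated TSS, 36 of them vomeronasal receptor genes (Vmn1r), which detect pheromones. Among these receptor genes an ATAC peak was present at 0 and 1 in the scramble KD lists and at 0 and 0 in those of TERRA KD, where 55 of the 56 Hist1 histone genes had one in each list. G4 peaks were present at 1 and 2 of the 36 in the scramble KD lists and 1 and 3 in those of TERRA KD, and an H3K9me3 peak at 1 in each of the 4 lists. ATRX was found at 1 of them, in TERRA KD replicate 1. The other 19 genes of the span had an ATAC peak at 10 and 10 in the scramble KD lists and 11 and 10 in those of TERRA KD, and a G4 peak at 3 and 7 in the scramble KD lists and 5 and 3 in those of TERRA KD.

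The share of histone genes with a G4 peak varied with repeated sequence in a way that differed between lists. Among the 17 genes with at most 10% repeated 50-base words, 11.8% and 41.2% had a G4 peak in the scramble KD lists and 29.4% and 0% in those of TERRA KD. Among the 43 genes with 10% to 50% the shares were 23.3% and 23.3% in the scramble KD lists and 6.98% and 9.30% in those of TERRA KD, and among the 10 genes above 50% they were 20%, 20%, 10% and 0%.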
